A study of Homo sapiens with 3 samples.

Results

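Fibroblast growth factor 2 (FGF2, also called basic FGF) and the receptors of its family were described in PANC-1 cells, an established human pancreatic cancer line. The 6 genes FGF2, FGFR1, FGFR2, FGFR3, FGFR4 and FGFRL1 were taken by symbol from a table of 51136 genes, and each symbol had 1 row. They were chosen with their fold changes in these libraries already known, so that every value below is a description without a test. The series compared untreated cells (control) with cells given 200 μM Ginsenoside Rg3, a saponin of ginseng (Rg3), and cells given 50 μM tamoxifen, an antiestrogen that the study used as an inhibitor of the PKC pathway (TAM). Each agent was applied alone for 24 h, and a solvent for the control cells is not named in the sources used here. Each condition had 1 RNA-seq library, made from total RNA on the Ion Proton platform. The doses and the agents differ, so that Rg3 and TAM are set side by side and each is compared with the control library alone. With single libraries there is no replicate check of any difference. The 95% intervals cover counting error only.

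FGF2 is a heparin-binding growth factor that stimulates endothelial cells and fibroblasts and is a classical angiogenic factor. It binds FGF receptors together with heparan sulfate chains on the cell surface. FGFR1 to FGFR4 are receptor tyrosine kinases, which pass the signal through the adaptor FRS2 and the RAS-ERK cascade, while FGFRL1 binds FGFs but lacks the intracellular kinase. Sprouty proteins and dual-specificity phosphatases are induced by the pathway and restrain it.

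Gene counts added up to 11300766 for control, 12861693 for Rg3 and 11321442 for TAM. Levels are given in CPM (counts per 1e+06 counts of the scaled library size) after TMM scaling, which multiplies the library totals by a factor estimated from most genes. Relative to division by totals alone, the TMM factors shifted every log2 fold change with Rg3 down by a constant (-0.14) and every one with TAM up by a constant (0.21). Where a gene reached 50 counts, its log2 fold change went down with the GC content of its transcript for Rg3 (rho of Spearman -0.82, across 11583 genes) and up with it for TAM (0.52, across 11022 genes). It also went down with transcript length for TAM (-0.48), whereas the value for Rg3 was 0.21. These are descriptions across genes of the same libraries, and genes are not independent replicates. The 6 genes span much of this range of GC content, so that the value left after subtraction of a smooth trend (loess) on GC content and length is given beside each fold change. Of the epithelial markers of the line, KRT8 had 7817 to 15329 counts and KRT18 7406 to 13162. Of the mesenchymal markers, VIM had 55276 counts in control, 39783 with Rg3 and 42048 with TAM. CDH2, the other mesenchymal marker listed, had 626 counts in control, 784 with Rg3 and 308 with TAM. The 4 acinar and 2 islet markers examined had 0 counts in the 3 libraries. Among markers of other cell types, CDH5 and CD3E were at 0, PECAM1, TEK, DCN and PTPRC had at most 1 count, PDGFRB had 4 in each library, while KDR (49 to 54 counts), CD14 (37 to 97), COL3A1 (89 to 214) and COL1A1 (734 to 1853) were counted. The summed level of the 4 endothelial markers was 4.28 to 4.59 CPM of the library total. That of the 4 fibroblast markers was 183 in control, 85.4 with Rg3 and 76.3 with TAM, and that of the 3 leukocyte markers was 8.58, 3.58 and 3.36. These sums came mostly from single genes, namely KDR, COL1A1 and CD14.

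Because the receptors are close relatives, the coding stretch in which FGFR2, FGFR3 and FGFR4 are most alike is shown, to let the likeness behind the separate counts be seen. It is 60 bases of the spliced coding sequence, read 5′ to 3′ from GENCODE 29 (GRCh38), and capitals mark the 12 positions at which the 3 genes are not all the same.
FGFR2: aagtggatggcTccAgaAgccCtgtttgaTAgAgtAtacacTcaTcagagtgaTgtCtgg
FGFR3: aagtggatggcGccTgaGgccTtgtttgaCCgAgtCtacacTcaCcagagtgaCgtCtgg
FGFR4: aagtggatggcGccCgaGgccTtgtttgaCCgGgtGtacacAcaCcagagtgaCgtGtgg
The stretch crosses an exon junction and lies within chr10:121485529-121487409 on the minus strand for FGFR2, chr4:1806272-1806549 on the plus strand for FGFR3 and chr5:177096302-177096607 on the plus strand for FGFR4. FGFR3 shares 51 of the 60 bases with FGFR2 and 55 with FGFR4. The longest run of identical bases between coding sequences was 31, between FGFR3 and FGFR4, followed by 30 between FGFR1 and FGFR4. FGFRL1 shared no run over 16 bases with any of the kinase receptors. No stretch of 50 bases of the FGFR2, FGFR3, FGFR4 or FGFRL1 transcript recurred on the same strand in a transcript of another gene, and 12 of 6005 stretches of FGFR1 did, none of them in another FGF receptor. The length of the reads is not given in the sources used here, so that the share of reads that could be placed on more than 1 receptor was not computed.

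FGF2, the ligand, was more abundant in the Rg3 library and less abundant in the TAM library than in control. It had 68 counts in control, 172 with Rg3 and 29 with TAM, or 5.92, 11.9 and 2.91 CPM. The order of levels was thus TAM, control, Rg3, and the 95% counting intervals of the levels did not overlap (1.95 to 4.18, 4.60 to 7.51 and 10.2 to 13.9). The log2 fold change was 1.01 with Rg3 (95% interval 0.60 to 1.44) and -1.02 with TAM (-1.70 to -0.38). The FGF2 transcript, however, has the lowest GC content of the 6 genes (37.5%) and the greatest length (6775 bases). The trend on GC content and length alone came to 0.84 with Rg3 and -0.81 with TAM at this composition. With it removed, 0.17 was left with Rg3 and -0.22 with TAM, both within 1.5-fold, while the scaling by DESeq2 left 1.01 and -0.99.

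The FGF2 gene (chr4:122826708-122898236, plus strand, GRCh38) runs against NUDT6, a gene for a Nudix hydrolase on the opposite strand. In GENCODE 29, 804 of the 6775 exon bases of FGF2 (11.9%), all of them in the untranslated part, also lie in exons of NUDT6, between positions 122892575 and 122897678. Whether strand was used in counting is not stated, and without strand the reads of this stretch cannot be assigned to either gene. NUDT6 had 56 counts in control, 85 with Rg3 and 57 with TAM. Its log2 fold change was 0.28 with Rg3 (-0.23 to 0.79) and 0.23 with TAM (-0.33 to 0.79), and both intervals include 0. When the rows of both genes were summed, the sums were 124, 257 and 86 counts. The summed log2 fold change was 0.72 with Rg3 (0.41 to 1.05) and -0.32 with TAM (-0.74 to 0.087), so that with TAM it was within 1.5-fold. This sum was added after the values were seen. It takes in the whole row of NUDT6, not only the shared stretch, so that it cannot show how the shared reads were divided.

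**Figure D1:**
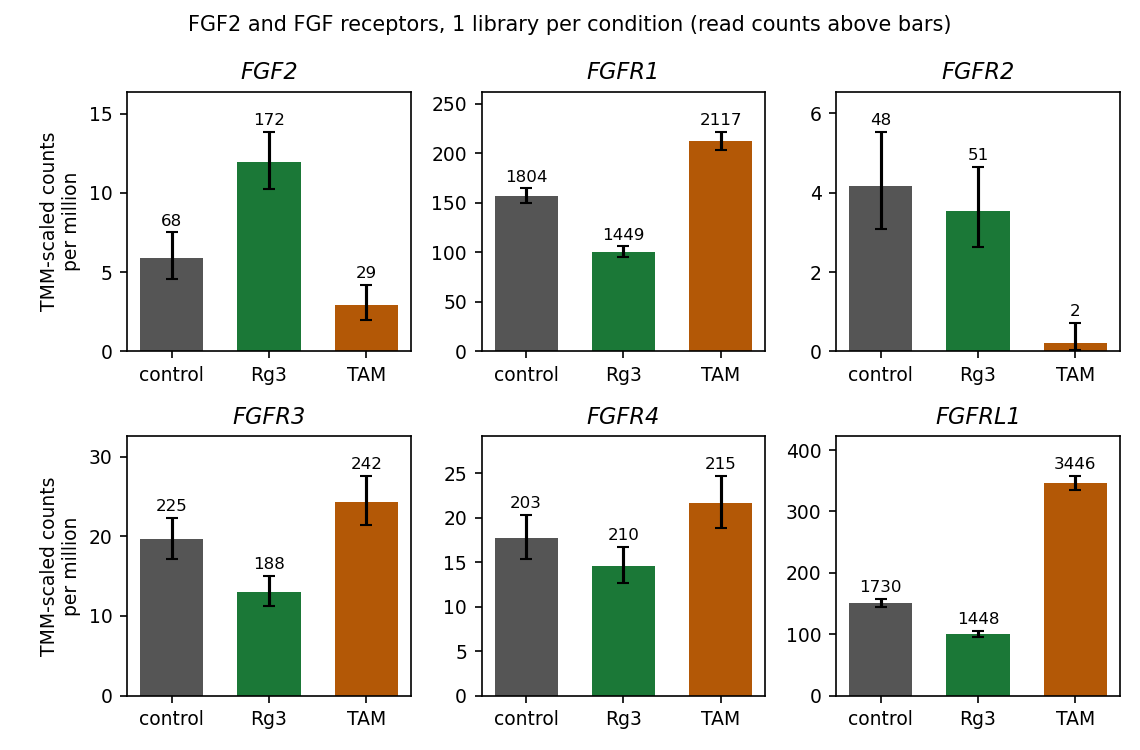
TMM-scaled CPM (vertical axes, each starting at 0, with a scale of its own in each panel) of the 6 genes in the control, Rg3 and TAM libraries. Bars are single libraries, error bars are exact 95% Poisson intervals of the count, and the number above each bar is the read count. FGF2 is highest with Rg3 (172 counts), FGFRL1 is highest with TAM (3446), and FGFR2 is nearly absent with TAM (2).

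The 5 genes with the fold changes nearest to those of FGF2, by Euclidean distance on the log2 scale over both comparisons and among 12852 other genes with at least 100 counts in all, were ZNF845, NAA30, ABL2, SNX30 and CLTC, at distances of 0.018 to 0.036. This likeness rests on 3 libraries, with the control library shared by both comparisons. The transcripts of these 5 genes had GC contents of 39.1% to 45.9% and lengths of 6351 to 12144 bases.

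FGFR1, the most abundant of the kinase receptors, was lower with Rg3 and higher with TAM. Its counts were 1804 in control, 1449 with Rg3 and 2117 with TAM, or 157, 101 and 213 CPM, and the counting intervals of these levels did not overlap. The log2 fold change was -0.64 with Rg3 (-0.74 to -0.54), just past 1.5-fold, and 0.44 with TAM (0.35 to 0.53), within 1.5-fold. With library totals the value with Rg3 was -0.50, within 1.5-fold. The transcript has 56.3% GC, where the trend came to -0.38 with Rg3 and -0.11 with TAM. The coding part of this transcript is 1101 of 6054 bases, and the trend values depend on the transcript taken. With the trend removed, FGFR1 stood at -0.27 with Rg3 and 0.55 with TAM, in the same directions as before. Exons of FGFR1 (chr8:38400215-38468834, minus strand) overlap LETM2 over 138 bases and the antisense gene AC087623.1 over 156 bases, both on the opposite strand.

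FGFR3 and FGFR4, the receptors with intermediate levels, differed less. FGFR3 had 225 counts in control, 188 with Rg3 and 242 with TAM, or 19.6, 13.1 and 24.3 CPM. The Rg3 level lay below the intervals of the other libraries, while those of control and TAM overlapped. Its log2 fold change was -0.59 with Rg3 (-0.87 to -0.30), at the 1.5-fold limit, and with library totals it was -0.45, within the limit. With TAM it was 0.31 (0.043 to 0.58). FGFR4 had 203, 210 and 215 counts, or 17.7, 14.6 and 21.6 CPM, and neighbouring libraries in the order Rg3, control, TAM overlapped in their intervals. The log2 fold change of FGFR4 was -0.28 with Rg3 (-0.56 to 0.0077) and 0.29 with TAM (0.0056 to 0.57). Both transcripts are rich in GC (62.0% for FGFR3 and 63.6% for FGFR4). The FGFR3 transcript taken has a coding part of 1092 bases, against 2406 for FGFR4, and the trend values depend on this choice. With the trend removed, the value of FGFR3 was 0.032 with Rg3 and 0.13 with TAM, and that of FGFR4 was 0.37 and -0.069, so that the direction with Rg3 turned in both genes and that with TAM turned in FGFR4. FGFR3 lies at chr4:1793293-1808872 and FGFR4 at chr5:177086886-177098144, both on the plus strand, and no exon of either overlaps an exon of another annotated gene.

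FGFR2, the receptor whose splice forms are typical of either epithelial or mesenchymal cells, was nearly absent from the TAM library. It had 48 counts in control, 51 with Rg3 and 2 with TAM, or 4.18, 3.54 and 0.20 CPM. The control and Rg3 levels overlapped in their intervals (3.08 to 5.54 and 2.64 to 4.66), and the TAM interval (0.024 to 0.73) lay below both. At the control level, 41.6 counts would have been found in the TAM library. The ratio of TAM to control was 0.048 (0.0057 to 0.18), or -4.38 on the log2 scale, and with the count of 2 raised to a floor of 3 the log2 fold change was -3.79. With Rg3 the log2 fold change was -0.24 (-0.84 to 0.36). The floored value with TAM was -4.00 with library totals, -3.76 with DESeq2's size factors and -3.60 with the trend removed, as the transcript has an intermediate GC content (48.8%) and the trend there was only -0.19. Among the 16079 genes compared for TAM, 2 genes had a lower value, IGLV1-51 (86 counts in control and 0 in each treated library) and MGAT3 (51, 22 and 3 counts), and the next above FGFR2 were SCNN1A (61, 53 and 4) and CDH1 (76, 39 and 5). These 4 genes were named after their values were seen. The ranking used counts raised to the floor of 3, so that the lowest value open to a gene depended on its control count. FGFR2 lies at chr10:121478334-121598458 on the minus strand, and no exon of it overlaps an exon of another annotated gene.

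Beside FGFR2, the epithelial markers did not move alike in the TAM library. CDH1, the epithelial cadherin, and EPCAM, an epithelial adhesion molecule (26, 26 and 8 counts), were lower, and KRT19 had 665, 290 and 181 counts. KRT8 had 15329, 7817 and 14411 counts, KRT18 11216, 7406 and 13162, and KRT7 248, 93 and 345. Summed over the 6 markers, the level was 2439, 1218 and 2483 CPM of the library total in control, Rg3 and TAM. KRT8 and KRT18 made up most of this sum in each library, so that it does not show the lower markers. ESRP2, which promotes the epithelial splice form of FGFR2, had 340, 289 and 202 counts, with a log2 fold change of -0.56 with Rg3 (-0.79 to -0.33) and -0.54 with TAM (-0.80 to -0.29). With the trend removed, ESRP2 stood at -0.034 with Rg3 and at -0.76, past 1.5-fold, with TAM. With library totals it stood at -0.42 with Rg3 and at -0.75, also past 1.5-fold, with TAM. Its relative ESRP1 had 0, 3 and 0 counts. The part of these markers in the FGFR2 value was not tested, and in bulk RNA fewer cells of a type and less RNA per cell cannot be told apart. Gene counts do not separate the splice forms.

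FGFRL1, the receptor without a kinase, was the gene of this group with the largest increase with TAM. It had 1730 counts in control, 1448 with Rg3 and 3446 with TAM, or 151, 101 and 346 CPM, and the intervals of the 3 libraries did not overlap. The log2 fold change with TAM was 1.20 (1.12 to 1.28), or 2.30-fold. It was 0.99 with library totals, 1.23 with DESeq2's size factors and 0.91 with the trend removed, past 1.5-fold under each. With Rg3 it was -0.58 (-0.69 to -0.48), a value that falls short of 1.5-fold by less than the counting error, and with the trend removed it was 0.072 and in the other direction. The transcript has 63.5% GC and 3639 bases, where the trend came to -0.66 with Rg3 and 0.29 with TAM. FGFRL1 lies at chr4:1009936-1026897 on the plus strand, on the same chromosome arm as FGFR3, and no exon of it overlaps an exon of another annotated gene.

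**Figure D2:**
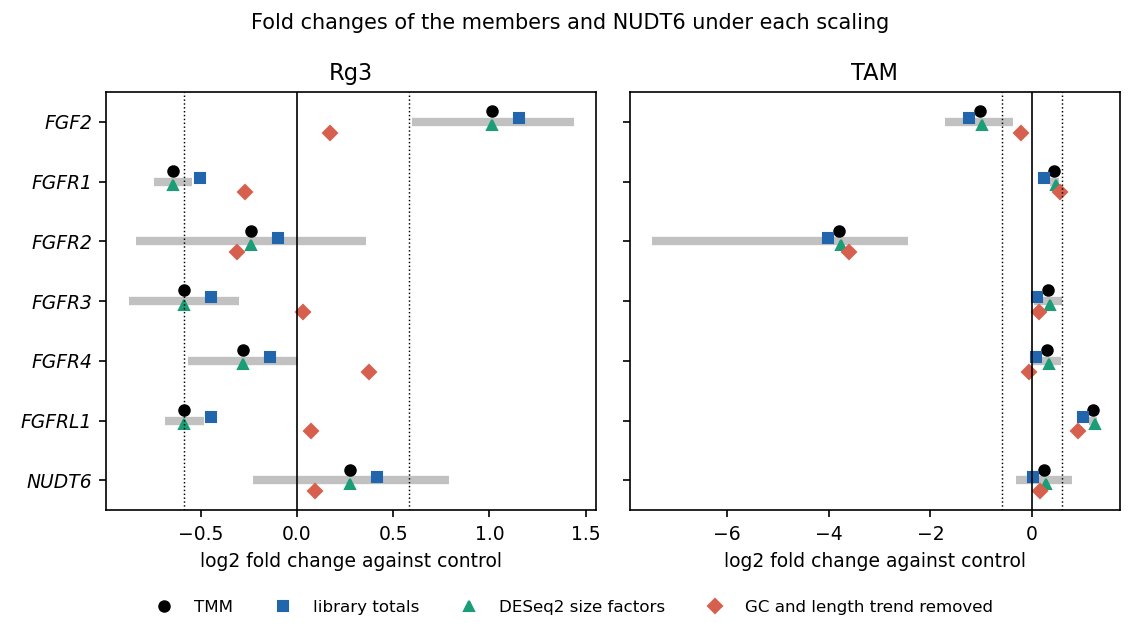
Log2 fold change against control (horizontal axes, a separate scale for each panel) of the 6 genes and NUDT6 with Rg3 and with TAM. Grey bars are exact 95% counting intervals of the TMM-scaled value, symbols are the value under each scaling, and dotted lines mark 1.5-fold. FGFRL1 and FGFR2 with TAM stay past 1.5-fold under every scaling, whereas FGF2 is near 0.17 with Rg3 and -0.22 with TAM once the trend on GC content and length is removed.

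Per length of the longest coding transcript, the order of the genes by level changed little between libraries. In control, FGFRL1 had 41.4 TMM-scaled CPM per kilobase and FGFR1 26.0, followed by FGFR4 (5.66), FGFR3 (4.42), FGFR2 (0.96) and FGF2 (0.87). The intervals of FGFR2 (0.71 to 1.27) and FGF2 (0.68 to 1.11) overlapped, and those of FGFR3 (3.86 to 5.03) and FGFR4 (4.91 to 6.50) touched. With Rg3, FGF2 (1.76) stood above FGFR2 (0.81), with intervals that did not overlap. With TAM, FGFRL1 reached 95.1, FGFR1 35.1 and FGF2 0.43, and FGFR2 was last with 0.046. The per-length level of FGFR1 was 0.63 times that of FGFRL1 in control, 0.60 times with Rg3 and 0.37 times with TAM. Of the summed per-length levels of the 4 kinase receptors, FGFR1 made up 70.2% in control, 66.4% with Rg3 and 73.8% with TAM, and FGFR2 2.59%, 3.24% and 0.097%. These levels depend on the transcript taken for the length.

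All 6 genes passed the minimum of 10 counts in the control library itself. In the TAM comparison, FGFR2 passed it only through control (48 counts, against 2 with TAM), the higher library of that pair. With Rg3, 1 of the 6 was over 1.5-fold higher (FGF2) and 2 were lower (FGFR1 and FGFR3, neither of them past 1.5-fold with library totals), against a background of 25.0% higher and 19.3% lower among the 16487 genes compared. With TAM, 1 was higher (FGFRL1) and 2 were lower (FGF2 and FGFR2), against 17.4% higher and 23.5% lower among 16079 genes. Once the trend was subtracted, 0 of the 6 were past 1.5-fold with Rg3, where 8.11% of 14279 genes were higher and 10.3% lower. With TAM, FGFRL1 was still higher and FGFR2 still lower after the subtraction, where 13.4% of 14019 genes were higher and 14.9% lower. The median log2 fold change of the 6 genes was -0.43 with Rg3, beside 0.043 over all genes compared, and 0.30 with TAM, beside -0.024. After subtraction of the trend, the median was 0.052 with Rg3, with the direction turned, and 0.030 with TAM. As the genes were chosen on these contrasts, nothing is read from the shares.

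**Figure D3:**
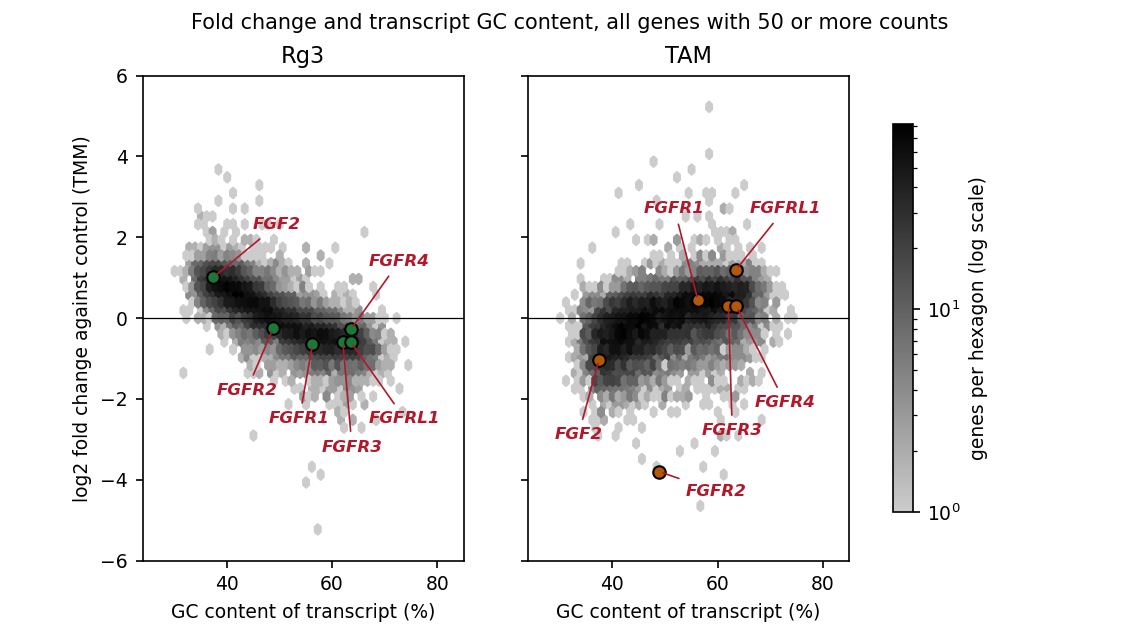
Log2 fold change against control (vertical axis, TMM-scaled) and GC content of the longest coding transcript (horizontal axis, %) for Rg3 and TAM. Grey hexagons count, on a log scale, all genes that reach 50 counts in control or the treated library, and circles are the 6 genes, with FGFR2 drawn for TAM although it is under that minimum (48 and 2 counts). FGF2 (37.5% GC) lies among the many genes of similar GC content in both panels, and FGFR2 with TAM (-3.79) lies among the few lowest values.

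The other genes of the pathway were taken from lists that follow the steps of FGF signalling, with ESRP1 and ESRP2 among them. Of 88 such genes, 56 could be compared for Rg3 and 57 for TAM, by the minimum of 10 counts in control or the treated library. With Rg3, 13 were over 1.5-fold higher and 8 lower (23.2% and 14.3% of those compared, median 0.17), and with TAM 10 were higher and 18 lower (17.5% and 31.6%, median -0.18). Over all genes compared, the shares and medians were those given above, and the genes of the pathway were not tested against them. After subtraction of the trend, 5 were higher and 3 lower for Rg3, and 6 higher and 7 lower for TAM. Among the values described next as past 1.5-fold, the direction then turned for HS2ST1 and NRAS with Rg3 and for BRAF and FLRT2 with TAM. No other value named below as past 1.5-fold with TMM scaling changed direction under library totals, DESeq2's size factors or this subtraction. Some values within 1.5-fold turned as well, among them those of FRS2, DUSP6 and ETV1 with TAM.

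Other ligands were scarce. Of the 17 secreted FGFs besides FGF2, 9 had no read in any library, which allows up to 3 counts in each, and FGF5 was the only one with at least 10 counts (14 in control, 20 with Rg3 and 5 with TAM). FGF1 had 6, 2 and 9 counts. Of the 4 intracellular FGF homologous factors, FGF11 was compared (99, 84 and 72 counts) and was within 1.5-fold in both libraries.

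Of the 16 co-receptors and heparan sulfate carriers, 10 were compared, and 1 was higher and 3 lower in each treated library, with a median log2 fold change of -0.31 with Rg3 and -0.27 with TAM. The klotho co-receptors KL and KLB, which serve the hormone-like FGFs, had no read. HSPG2, the basement membrane proteoglycan perlecan that carries FGF2, had 1930, 1218 and 853 counts, with log2 fold changes of -0.99 with Rg3 (-1.10 to -0.89) and -0.97 with TAM (-1.09 to -0.85). These were -0.27 and -0.58 with the trend removed. SDC1, a cell surface proteoglycan, was lower with Rg3 (-0.89), and GPC4, a glypican, was higher with Rg3 (0.86) and lower with TAM (-1.67) on 22, 50 and 6 counts. Among 10 enzymes of heparan sulfate, 7 were compared. With Rg3, 2 of them were higher and 1 lower (median -0.18), and with TAM the counts were 2 and 3 (median -0.18). GLCE, the epimerase that converts glucuronic to iduronic acid, had 148, 418 and 46 counts (1.17 with Rg3 and -1.48 with TAM), and HS2ST1, a 2-O-sulfotransferase, had 0.63 and -1.01. NDST1, which begins sulfation, was lower with both (-0.72 with Rg3 and -0.62 with TAM), and NDST2 (0.60) and HS6ST1 (0.83) were higher with TAM. Subtraction of the trend brought SDC1 (-0.35), GPC4 (0.47), GLCE (0.40), HS2ST1 (-0.22) and NDST1 (-0.33) within 1.5-fold for Rg3, and HS2ST1 (-0.20), NDST1 (-0.29) and NDST2 (0.47) for TAM. Still past it for TAM were GPC4 (-1.24), GLCE (-0.83) and HS6ST1 (0.61). SDC4 for Rg3 (-0.63) and EXT1, a subunit of the heparan sulfate polymerase, for both (-0.64 with Rg3 and 0.73 with TAM) were past it only after the subtraction, and were named after their values were seen.

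The 10 receptor-proximal adaptors were all compared, and 4 of them were higher and 1 lower for Rg3 (median 0.33), against 1 and 4 for TAM (median -0.44). FRS2, the docking protein of the FGF receptors, had 70, 195 and 44 counts, with a log2 fold change of 1.15 with Rg3 (0.75 to 1.57) and -0.46 with TAM (-1.04 to 0.10). With the trend removed, FRS2 stood at 0.28 with Rg3 and at 0.35, in the other direction, with TAM. Its relative FRS3 had -0.88 with Rg3 and 0.80 with TAM. SOS1, an exchange factor for RAS, had 1.11 with Rg3 and was past 1.5-fold lower with TAM (189 counts in control and 82 with TAM), and its relative SOS2 had 0.82 and -1.25, the docking protein GAB1 had 1.26 and -1.27, and the phosphatase PTPN11 was lower with TAM (-1.12). Among these 10 adaptors, only SOS2 (-0.60 with TAM) was past 1.5-fold with the trend removed. In the RAS-RAF-MEK-ERK cascade, 3 of 10 genes were higher and 2 lower for Rg3 (median 0.14), against 2 and 3 for TAM (median -0.0039). BRAF had 1.06 with Rg3 and -0.71 with TAM, and NRAS was higher with Rg3 (0.80). ARAF (-0.73) and MAPK3 (-0.71) were lower with Rg3, and HRAS (0.83) and MAP2K2 (0.61) were higher with TAM. With the trend removed, 0 of the 10 were past 1.5-fold in either library.

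The feedback inhibitors and modulators of the pathway include Sprouty proteins and phosphatases that it induces, and also CBL and the FLRT proteins. Of 14 listed, 11 were compared for Rg3 (2 higher and 1 lower, median 0.47) and 12 for TAM (3 higher and 4 lower, median -0.23). After subtraction of the trend, 3 were higher and 0 lower for Rg3 (median 0.098) and 2 higher and 2 lower for TAM (median 0.093, now above 0). SPRY4, a Sprouty inhibitor, had 445, 849 and 688 counts, and its log2 fold change was 0.61 with Rg3 (0.44 to 0.77) and 0.83 with TAM (0.66 to 1.01), or 0.76 and 0.96 with the trend removed. DUSP6, a phosphatase for ERK, had 115, 275 and 89 counts, with 0.93 for Rg3 (0.61 to 1.26) and 0.70 with the trend removed, and -0.16 with TAM (-0.58 to 0.25). DUSP5 had 0.35 with Rg3 and 0.68 with TAM, which were 0.73 and 0.39 with the trend removed. Lower with TAM were SPRY1 (-0.94), the FGF receptor antagonist IL17RD (-1.52), the ubiquitin ligase CBL (-1.20) and FLRT2 (-1.18), of which SPRY1 (-0.82) and IL17RD (-0.85) stayed past 1.5-fold without the trend. SPRED3 was lower with Rg3 (-0.89, and -0.40 without the trend). Among 5 transcription factors that FGF signalling induces, ETV1 was higher with Rg3 (1.34 on 109 and 345 counts, and 0.52 with the trend removed) and FOSL1 was higher with TAM (0.80, and 0.35). With TAM, ETV1 was at -0.070 (-0.49 to 0.35), and at 0.72, past 1.5-fold higher, with the trend removed. ETV4 (191, 279 and 232 counts) and ETV5 (621, 1009 and 633) were within 1.5-fold in both libraries, and ETV4 was at 0.79 with Rg3 once the trend was removed.

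**Figure D4:**
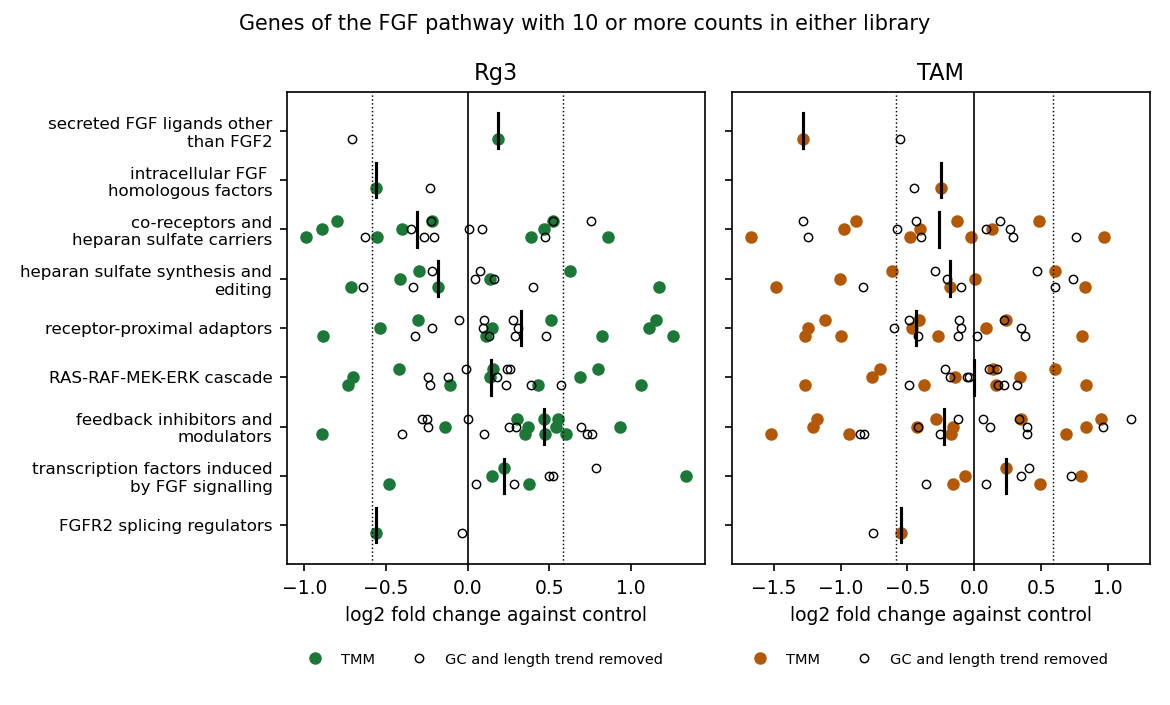
Log2 fold change against control (horizontal axes, separate scales) of the pathway genes compared, by list, with Rg3 and with TAM. Filled circles are TMM-scaled values of single genes, open circles the same after subtraction of the trend, black bars the list medians of the filled circles, and dotted lines 1.5-fold. Most open circles lie within 1.5-fold, and those beyond it are 8 genes with Rg3 and 13 with TAM.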

How the data were processed

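The 3 libraries of PANC-1 cells (control, Rg3, TAM) were grouped by the agent that the labels name. TopHat, after FAST-QC, served the authors for alignment, and MAQ for assembly of mapped reads. They deposited raw read counts per gene symbol, without normalization. The submitters' processing notes name GRCh38, and the annotation, the counting tool and the use of strand are not given in the sources used here. The Limma criteria of the study need replicates and could not be fitted.

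The counts were scaled by TMM (edgeR 4.0.16, R 4.3.3) and each treated library was divided by control in Python 3.11.15, for genes that reached 10 counts in 1 of the pair. A count below the floor of 3 was set to 3, and no fold was taken where both counts were at or under 3. Exact 95% intervals (Clopper-Pearson on the split of reads, Poisson for levels) cover counting error only. For a count of 0, the bound of about 3 counts given here is the 1-sided 95% Poisson bound, not the upper end of such an interval. A gene was called past 1.5-fold by its fold alone. No test was run. Each gene was given the GC content and length of its longest coding transcript in GENCODE 29 (of the longest transcript where none is coding), matched by symbol for 86.6% of genes compared for Rg3 and 87.2% for TAM, and for each of the 6 genes. A loess trend on both (span 0.3) was subtracted as an alternative. Other alternatives were library totals, size factors from DESeq2 1.42.0, count minimums of 1 and 50, and a floor of 1. The steps were tested on simulated data.

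The members and the pathway and marker lists were chosen with earlier results of these data known. Named are the 6 genes, listed genes past 1.5-fold with at least 50 counts in either library, genes with exons that overlap a member, the 5 genes nearest to FGF2 in fold change and the genes said to be chosen later. The other listed genes are given by counts, with a few as examples, and some listed genes that meet the rule are not reported here by name.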

Additional observations from a re-analysis of the deposited data

How the results depend on the processing

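No paired analysis was possible because only 1 library was made per condition, and for the same reason no library could be left out. Without the trend on GC content and transcript length, the log2 fold change for Rg3 was 0.17 for FGF2, -0.27 for FGFR1, 0.032 for FGFR3, 0.37 for FGFR4 and 0.072 for FGFRL1 (the last 3 in the other direction), and with TAM it was -0.22 for FGF2, 0.55 for FGFR1, -0.069 for FGFR4 (the other direction) and 0.91 for FGFRL1. These 9 values lay outside the counting interval of the TMM-scaled value. Over all genes, Rg3 then had 1158 higher and 1471 lower, and TAM had 2091 lower. Of the pathway genes, Rg3 had 5 higher and 3 lower, and TAM had 6 higher and 7 lower. That alternative covers only genes with a GC value. With library totals, FGFR3 was at -0.45 with Rg3, within 1.5-fold, FGFR1 was at -0.50 with Rg3 and 0.23 with TAM, FGFRL1 at -0.44 and 0.99, 1576 genes were higher with TAM and 20 pathway genes were higher with Rg3. Library totals moved the share of higher calls among all calls from 56.5% to 69.4% with Rg3 and from 42.5% to 23.1% with TAM, by the shift of the scaling itself. With no count minimum above 1, 14 pathway genes were lower with Rg3, and with a minimum of 50 fewer genes were compared and 2099 were lower with Rg3 and 2498 with TAM. DESeq2's size factors and a floor of 1 left each member within its counting interval. With FGF2 and NUDT6 summed, the value with TAM was -0.32, outside the interval of FGF2 alone, and with Rg3 0.72, inside it. That sum takes in the whole row of NUDT6 and is not a value of FGF2 itself. Values below about 50 counts, such as FGFR2, are limited by depth.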
